A study of Mus musculus with 4 samples.

Results

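The genes described are 10 components of the extracellular proteolysis machinery, taken by symbol from the 23951 gene rows of the deposited table: the matrix metalloproteases Mmp2, Mmp3, Mmp11, Mmp13 and Mmp14, the tissue inhibitors of metalloproteases Timp1, Timp2 and Timp3, and the urokinase genes Plau and Plaur. Each of the 10 had 1 row and a value above 0 in all 4 libraries. RNA had been sequenced from YFP-positive cells sorted out of mammary tumors in MMTV-PyMT mice labelled female, whose tumors are caused by a viral oncogene under a mammary promoter. All mice carried the R26Y reporter, a stop-flanked YFP at Rosa26 that marks cells after Cre recombination, and all had received the adenovirus Ad-K8-Cre, with Cre under the Krt8 promoter, into the ducts 2 to 3 months earlier. The 2 wild-type libraries came from Lsd1+/+ mice, and the 2 knockout-labelled libraries from mice with conditional Lsd1L/L alleles. For the latter the genotype label says knockout but the tissue label says Lsd1+/+, so they are called knockout-labelled throughout. The labels do not say whether the libraries came from separate or pooled animals, so p-values speak only of the spread among the 4 libraries, which may be technical.

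Matrix metalloproteases are zinc-dependent enzymes that cut collagens and other matrix proteins and release growth factors held there. Most are secreted as inactive precursors, and TIMPs block the active enzymes by binding their catalytic site. Urokinase, bound to its receptor on the cell surface, converts plasminogen to plasmin, a broad protease that also activates several metalloprotease precursors. In mammary tumors this machinery is known for remodelling the matrix during invasion, and much of it is made by fibroblasts and macrophages as well as by tumor cells.

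Levels are in FPKM, which scales reads by transcript length and library total and so allows genes to be compared. Differences are in mean log2(FPKM + 1), labelled knockout minus wild-type, from a limma fit over the 11138 rows that reached 1 FPKM in 2 or more libraries, with Benjamini-Hochberg adjustment over these rows at a threshold of 0.05. Adding 1 before the logarithm shrinks the difference of low genes such as Plau and Mmp11. The spacing of the smallest values gave relative depths of 0.849 to 1.03, with the second knockout-labelled library as 1, or very roughly 20000000 to 24300000 reads per library.

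Kdm1a, which encodes LSD1 and is the targeted gene, was measured at 52.5 and 22.9 FPKM in the wild-type pair, compared with 20.2 and 22.8 FPKM in the knockout-labelled libraries (difference -0.67, SE 0.46, limma adjusted p = 0.34). A gene-level value does not separate deleted from intact exons, so it checks the labels only in part. Xist, the RNA that coats the inactive X chromosome of female cells, was measured at 3.31 and 3.93 FPKM in the wild-type pair. In the knockout-labelled libraries it was listed at 0 and at 0.0096 FPKM (difference -2.20, SE 0.18, limma adjusted p = 0.024). Xist entered the test through the wild-type pair, where it was high. Tsix, read in the same check, was also low there, at 0.020 and 0.028 FPKM against 5.99 and 9.28 FPKM in wild-type. Taken alone, the low level of Xist goes against the female label of the knockout-labelled libraries. The Y-linked genes Ddx3y, Uty, Kdm5d and Eif2s3y were listed at 0 in all 4 libraries, so no Y-linked RNA marked male cells either. These rows together do not settle the sex of the knockout-labelled libraries. The part of the Xist difference in the results was not tested. The wild-type pair was also less alike than the other pair, with a median absolute log2 difference over tested rows of 0.50 between the wild-type libraries against 0.13 between those labelled knockout. Luminal epithelial markers were present in all 4 libraries but at unequal levels: the 10 genes summed to 12750 and 2820 FPKM in wild-type and to 760 and 780 FPKM in the knockout-labelled libraries. The 13 lymphocyte markers summed to 18.3 and 81.7 FPKM in wild-type and to 2101 and 1998 FPKM in the knockout-labelled libraries. These cells had been sorted for YFP, and in bulk RNA fewer cells of a type cannot be told apart from less RNA per cell.

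All 10 genes had a lower mean in the knockout-labelled libraries. Of the 9 that could be tested, Timp2 and Plaur fell, none rose and 7 did not pass, while 6 were lower at an unadjusted p under 0.05. Over all tested rows 6.99% were called lower and 9.51% called higher, and 17.8% were lower at an unadjusted p under 0.05. With the replicate number as a block 6 of the 9 genes and 16.8% of rows were lower at an unadjusted p under 0.05, and without a filter on low values 5 of the 10 genes and 13.3% of rows. The median difference over the 9 genes was -0.98, against 0.08 over all tested rows. In 9 of the 10 genes both libraries labelled knockout were below both wild-type libraries (8 of the 9 tested), a pattern seen in 32.1% of all tested rows; Mmp11 was the exception. Plau did not reach 1 FPKM in 2 libraries and was therefore not tested.

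**Figure D1:**
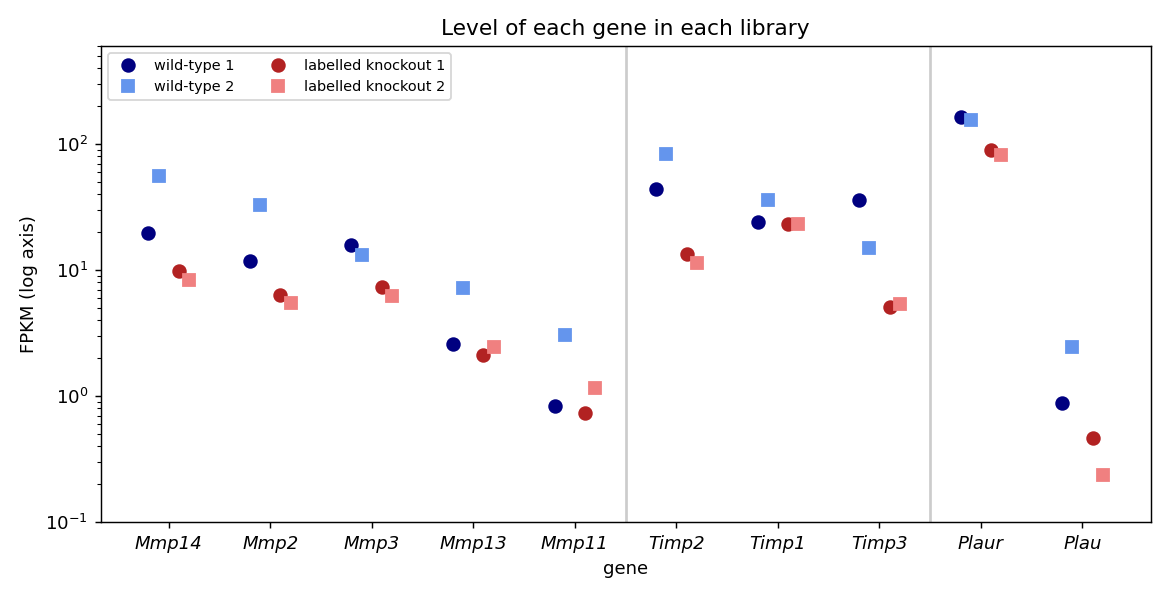
FPKM on a log axis for each of the 10 genes, with 1 point per library (blue, wild-type; red, labelled knockout; circles, replicate 1; squares, replicate 2). Plaur lies highest in every library, Timp1 lies nearly level between the first wild-type library and both libraries labelled knockout, and Mmp2, Mmp14, Mmp13 and Plau lie highest in the second wild-type library.

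The membrane-anchored protease Mmp14 and the gelatinase Mmp2 form an activation cascade in which Mmp14, with Timp2 as a bridge, cleaves the Mmp2 precursor. Mmp14 was measured at 19.8 and 55.6 FPKM in the wild-type pair, compared with 9.90 and 8.33 FPKM in the knockout-labelled libraries. The groups did not overlap, yet the second wild-type library was 2.81 times the first, and the difference of -1.77 (SE 0.55) did not pass (limma adjusted p = 0.10). Mmp2 was measured at 11.8 and 33.0 FPKM in the wild-type pair, compared with 6.39 and 5.47 FPKM in the knockout-labelled libraries. Its second wild-type library was 2.79 times its first, and its difference of -1.60 (SE 0.54) did not pass either (limma adjusted p = 0.12). The ratio of Mmp14 to Mmp2 was 1.67 and 1.68 in wild-type, against 1.55 and 1.52 in the knockout-labelled libraries, so both genes moved nearly in step across the 4 libraries. For both, the size of the difference depended on which wild-type library was kept: Mmp14 differed by -2.49 without the first and by -1.04 without the second, and Mmp2 by -2.30 and -0.89.

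Mmp3, a stromelysin that cuts proteoglycans and activates other precursors, behaved differently within the wild-type pair. It was measured at 15.7 and 13.1 FPKM in the wild-type pair, compared with 7.38 and 6.26 FPKM in the knockout-labelled libraries. The wild-type mean was 2.11 times the other mean, and the difference of -0.98 (SE 0.23) was just short of the threshold (limma adjusted p = 0.062). The collagenase Mmp13, which cuts fibrillar collagen, was measured at 2.61 and 7.27 FPKM in the wild-type pair, compared with 2.11 and 2.45 FPKM in the knockout-labelled libraries. Here the second wild-type library stood alone and the other 3 lay close together; the difference was -0.74 (SE 0.48, limma adjusted p = 0.32), and -0.14 without the second wild-type library.

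The lowest of the metalloproteases was Mmp11, another stromelysin, known from stromal cells around breast carcinomas. It was measured at 0.832 and 3.06 FPKM in the wild-type pair, compared with 0.737 and 1.16 FPKM in the knockout-labelled libraries. The groups overlapped, the difference was -0.49 (SE 0.46, limma adjusted p = 0.47), and its sign turned without the second wild-type library (0.079). With the longest annotated transcript and the estimated depth, these levels stand for very roughly 37 to 140 reads per library, so counting error adds to their spread.

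**Figure D2:**
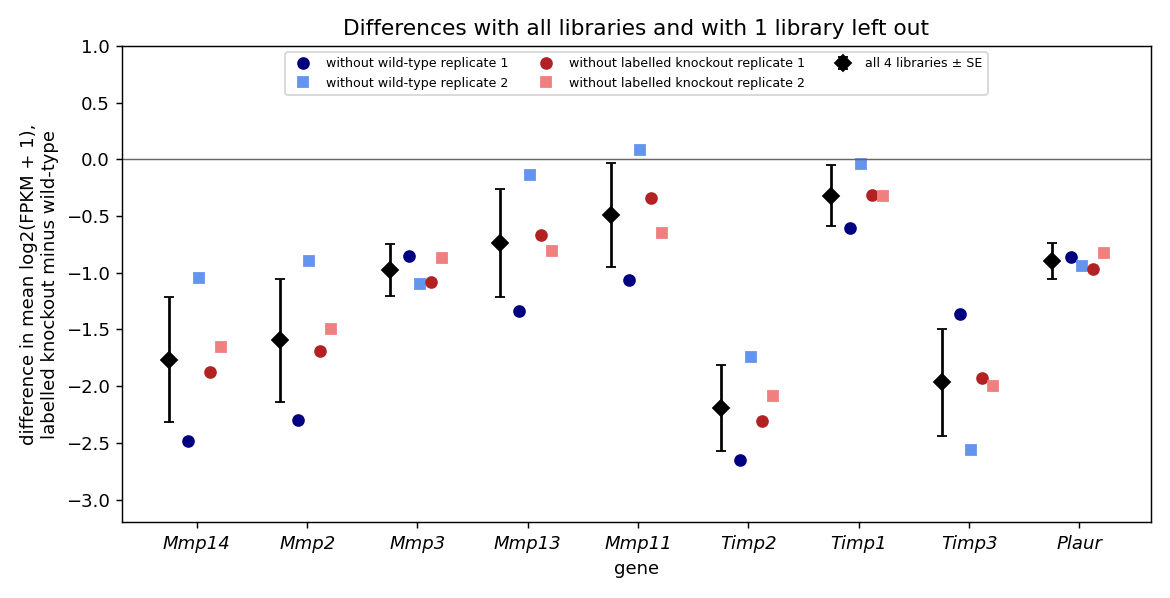
Difference in mean log2(FPKM + 1), labelled knockout minus wild-type, for the 9 tested genes: black diamonds with SE bars use all 4 libraries, coloured points leave out 1 library. The points for Plaur and Mmp3 lie close together, while those for Mmp14, Mmp2, Mmp13, Mmp11 and Timp3 spread with the wild-type library left out.

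Among the inhibitors, Timp2 had the largest difference of the 9 tested genes. Timp2, which blocks metalloproteases and also takes part in Mmp2 activation, was measured at 43.7 and 83.0 FPKM in the wild-type pair, compared with 13.4 and 11.4 FPKM in the knockout-labelled libraries. The lower wild-type library was still 3.25 times the higher knockout-labelled library. Timp2 fell by 2.20 on the log2(FPKM + 1) scale (SE 0.38, limma adjusted p = 0.040). The difference was -2.65 and -1.74 without the first and the second wild-type library, respectively. The call ended without either knockout-labelled library (limma adjusted p = 0.39 without the first and 0.40 without the second, where no row of the table passed), without a filter on low values (0.072) and with the replicate number as a block (0.056).

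Timp3, which binds to the matrix and also inhibits ADAM sheddases, was the one inhibitor that was higher in the first wild-type library. Its levels were 35.8 and 15.0 FPKM in wild-type and 5.07 and 5.38 FPKM in the knockout-labelled libraries. Both wild-type libraries were thus well above the other pair, by a factor of 2.80 between the nearest libraries. The difference of -1.96 (SE 0.47) did not pass (limma adjusted p = 0.065), and it was -1.37 without the first and -2.56 without the second wild-type library.

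Timp1, a secreted inhibitor that many cells make in inflammation, had the smallest difference of the 9 tested genes. It was measured at 24.0 and 35.9 FPKM in the wild-type pair, compared with 23.2 and 23.4 FPKM in the knockout-labelled libraries. The first wild-type library was only 1.03 times the higher knockout-labelled library, so the groups barely separated. The difference was -0.32 (SE 0.27, limma adjusted p = 0.42) and -0.039 without the second wild-type library.

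The makeup of the inhibitor pool is shown by the share of each TIMP. Timp2 made up 42.2% and 62.0% of the summed TIMP FPKM in wild-type and 32.2% and 28.3% in the knockout-labelled libraries. Timp1 made up 23.2% and 26.8% in wild-type, against 55.7% and 58.3% in the knockout-labelled libraries. The first TIMP in rank was Timp2 in both wild-type libraries and Timp1 in both others. With 2 libraries against 2, an exact permutation test of such a share cannot go below p = 0.333, so these shares are descriptions.

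The summed FPKM of the 5 metalloproteases was 50.8 and 112 in wild-type, against 26.5 and 23.7 in the knockout-labelled libraries. The sum of the 3 TIMPs was 103 and 134 in wild-type, against 41.8 and 40.2 in the knockout-labelled libraries. The ratio of TIMP to metalloprotease RNA was 2.04 and 1.20 in wild-type, against 1.57 and 1.70 in the knockout-labelled libraries. The groups overlapped in this ratio: both sums were lower in the knockout-labelled libraries, while their ratio lay between the 2 wild-type values. Within the metalloprotease sum, Mmp14 held the largest share in all 4 libraries (39.0% and 49.6% in wild-type, 37.3% and 35.2% in the others).

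**Figure D3:**
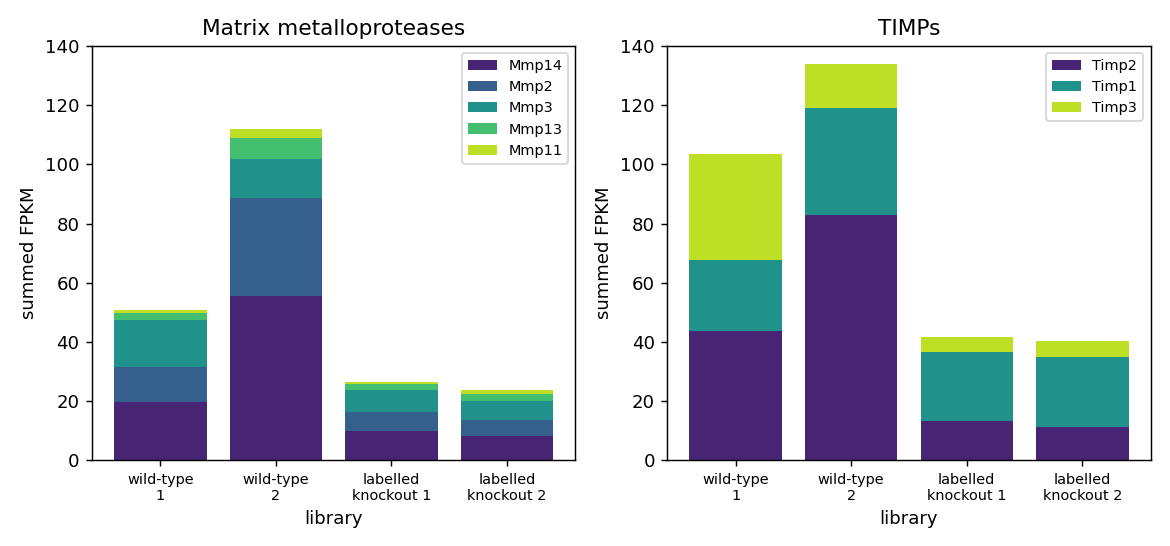
Summed FPKM of the 5 metalloproteases (left) and the 3 TIMPs (right) in each library, stacked by gene. Both sums are lower in the knockout-labelled libraries, and Timp1 is the largest part of the TIMP bar there, whereas Timp2 is the largest part in wild-type.

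In the urokinase system the receptor was abundant and the enzyme scarce. Plaur, the lipid-anchored receptor that holds urokinase at the cell surface, was measured at 165 and 156 FPKM in the wild-type pair, compared with 90.1 and 81.4 FPKM in the knockout-labelled libraries. Only 3.96% and 4.06% of rows with at least 1 FPKM were higher than Plaur in wild-type, and 7.08% and 7.86% in the knockout-labelled libraries. Both pairs agreed closely, and the groups were 1.73-fold apart between their nearest libraries. Plaur fell by 0.90 (SE 0.16, limma adjusted p = 0.041), and the difference stayed between -0.97 and -0.83 when any 1 library was left out. The call itself ended without the first (limma adjusted p = 0.42) or second (0.44) knockout-labelled library, without a filter on low values (0.069), after rescaling to a common total (0.063), without a trended and robust prior (0.054) and with the replicate block (0.091).

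Plau, the urokinase enzyme, was measured at 0.883 and 2.47 FPKM in the wild-type pair, compared with 0.469 and 0.236 FPKM in the knockout-labelled libraries. Both libraries labelled knockout were below both wild-type libraries, with a difference of -0.92 on the log2(FPKM + 1) scale. When rows of any level were tested, Plau had a limma adjusted p of 0.22. Its 4 values stand for very roughly 13 to 116 reads, so the lowest rest on few reads. Plaur exceeded Plau by a factor of 187 and 63.1 in wild-type, against 192 and 345 in the knockout-labelled libraries.

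The order of levels was the same in both libraries labelled knockout: Plaur, Timp1, Timp2, Mmp14, Mmp3, Mmp2, Timp3, Mmp13, Mmp11 and Plau. The ranges of Mmp3 and Mmp2 overlapped there, and Mmp2 and Timp3 nearly met. In wild-type the order changed between libraries. Plaur stood first and Timp2 second in both wild-type libraries, but Timp3 was the third in the first library and the sixth in the second, where Mmp14 was the third. Ranges of neighbouring genes overlapped in wild-type except that Plaur stood above Timp2, and Mmp3 above Mmp13.

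Across the wild-type pair the genes fell into different patterns. Of the 10 genes, 7 had their wild-type maximum in the second library and 3, namely Timp3, Mmp3 and Plaur, in the first. The second library was 2.79 times the first for Mmp2, 2.81 for Mmp14, 2.78 for Mmp13, 2.80 for Plau and 3.68 for Mmp11, and it was 1.90 times the first for Timp2 and 1.50 for Timp1. Over the 10 genes the median absolute log2(FPKM + 1) difference within the wild-type pair was 1.03, against 0.50 over all tested rows, and within the knockout-labelled pair it was 0.20 against 0.13.

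Cell type markers moved with these patterns. The 13 fibroblast markers summed to 259 and 650 FPKM in wild-type and to 226 and 223 FPKM in the knockout-labelled libraries, with all 13 at their wild-type maximum in the second library and none at 0 anywhere. Their median log2(FPKM + 1) ran otherwise, at 1.42 and 3.26 in wild-type against 3.21 and 2.84. Thy1 alone was above both wild-type libraries, at 0.519 and 1.94 FPKM in wild-type against 8.25 and 6.14 FPKM. The 12 macrophage markers with a row summed to 623 and 14870 FPKM in wild-type and to 1524 and 1409 FPKM in the knockout-labelled libraries, and all 12 were higher in the second wild-type library. The 10 endothelial markers summed to 37.8 and 258 FPKM against 24.2 and 23.9 FPKM, also all 10 higher in the second wild-type library. Pecam1 was the largest part of the knockout-labelled sums, at 5.78 and 42.9 FPKM in wild-type against 17.5 and 16.6 FPKM. Every other marker of this list was lower in both knockout-labelled libraries than in both wild-type libraries. The second wild-type library, highest in these 3 lists, was also the one highest in Mmp2, Mmp11, Mmp13, Mmp14, Timp1, Timp2 and Plau.

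The epithelial sums ran the other way within wild-type. The luminal sums given above were higher in the first wild-type library, as were 9 of the 10 luminal genes. The 8 basal markers also summed higher there, at 508 and 142 FPKM in wild-type and 78.6 and 94.3 FPKM in the others, but only 4 of the 8, the keratins Krt5, Krt14 and Krt17 and the basal regulator Trp63, were higher in that library. The contractile genes Acta2, Myh11, Cnn1 and Tagln were higher in the second. Timp3, Mmp3 and Plaur were likewise higher in the first wild-type library, Timp3 by a factor of 2.38 and Plaur by 1.06. The 10 neutrophil markers summed to 590 and 632 FPKM in wild-type and to 1207 and 1291 FPKM in the knockout-labelled libraries. Of the 8 tested, 2 were called higher there by limma and 0 lower. Ltf went the other way, at 313 and 76.4 FPKM in wild-type against 42.3 and 37.3 FPKM. Csf3r was highest in the second wild-type library, at 12.5 FPKM. Mpo was at 0 in 3 libraries and Elane at 0 in both wild-type libraries. What part any of these cell types has in the levels of the protease and inhibitor genes was not tested.

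**Figure D4:**
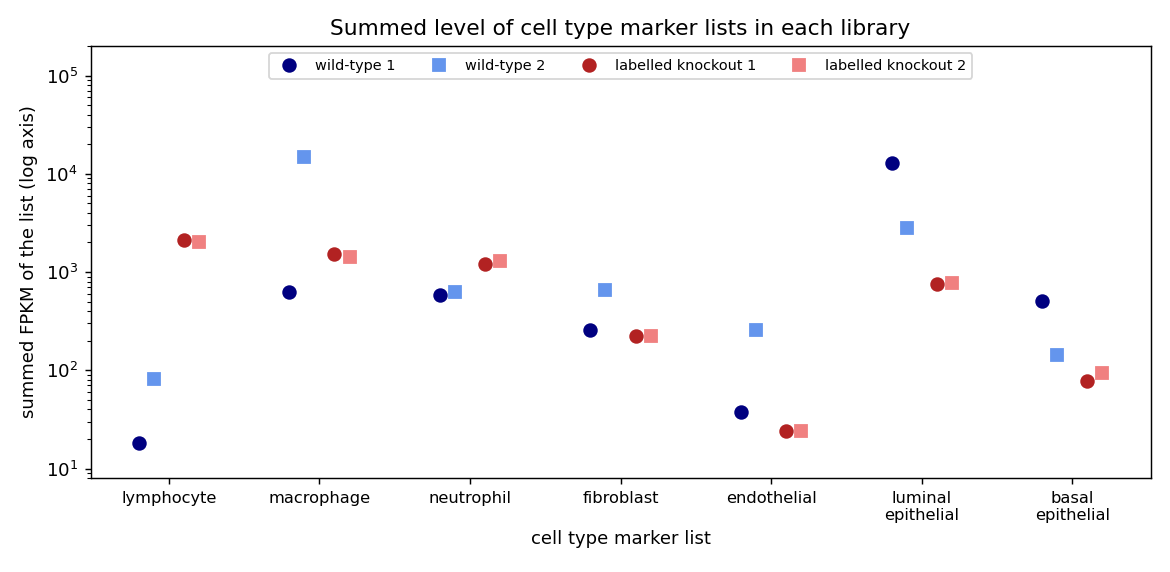
Summed FPKM of 7 cell type marker lists on a log axis, with 1 point per library (blue, wild-type; red, labelled knockout). Macrophage, fibroblast and endothelial sums are highest in the second wild-type library, luminal and basal epithelial sums in the first, and lymphocyte sums in the knockout-labelled libraries.

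Levels set against the fibroblast sum differed between the genes. Per 1000 FPKM of the fibroblast list, Mmp13 was at 10.1 and 11.2 in wild-type and at 9.38 and 11.0 in the knockout-labelled libraries, so its groups overlapped. On the same scale Mmp2 was at 45.7 and 50.9 in wild-type against 28.4 and 24.6, and Mmp14 at 76.4 and 85.6 against 43.9 and 37.5. Timp2 was at 169 and 128 in wild-type against 59.6 and 51.2. Of the 10 genes, 4 were lower without overlap in the knockout-labelled libraries on this scale (Mmp2, Mmp14, Timp2 and Plau). The share of all tested rows with that pattern on this scale was not computed, so the count is a description. The wild-type libraries of Mmp2 and Mmp14 lay closer together than in FPKM. Timp3 was at 138 and 23.1 in wild-type against 22.5 and 24.2, so its groups overlapped and the first wild-type library stood alone. Plaur, one of the genes that fell, overlapped as well, at 638 and 240 in wild-type against 400 and 366, and so did Mmp3 and Mmp11. Timp1 turned, at 92.7 and 55.3 in wild-type against 103 and 105.

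Set against the luminal sum, none of the 10 genes was lower in both knockout-labelled libraries. On that scale 5 were higher there than in both wild-type libraries (Mmp3, Mmp13, Timp1, Timp3 and Plaur), and 5 overlapped. The luminal sum was itself far lower in both knockout-labelled libraries, so dividing by it raises every row there against wild-type. The share of all tested rows with each pattern was not computed, so these counts are descriptions. Per 1000 FPKM of the luminal list Plaur was at 13.0 and 55.3 in wild-type against 119 and 104. Timp2 was at 3.43 and 29.5 in wild-type against 17.7 and 14.6, and Mmp14 at 1.55 and 19.7 against 13.0 and 10.7, so the groups of both overlapped. These genes are also made by other cell types, so neither ratio is a level per cell of that type.

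The rows most like each gene over the 4 libraries were found among 6470 named rows with a mean of at least 5 FPKM, by the distance between centred log2(FPKM + 1) profiles. For Mmp2 these were Uap1l1 (distance 0.10), Psap, a lysosomal sphingolipid activator (0.15), and Ctsk, a collagen-cutting cathepsin (0.15). Mmp14 was nearest to Hmox1, a haem-degrading enzyme (0.16), followed by Uap1l1 (0.20) and Psap (0.22). Timp2 was nearest to the iron exporter gene Slc40a1 (0.17), Ppap2a (0.20) and the lysosomal ceramidase gene Asah1 (0.21). Psap, at 270 and 822 FPKM in wild-type and 163 and 149 FPKM in the knockout-labelled libraries, shows the shape that Mmp2 and Mmp14 share.

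Timp3 was nearest to Trib1 (0.043), Dyrk3 (0.060) and Leprel4 (0.10), all higher in the first wild-type library. Plaur was nearest to Echs1 (0.057), Dhrs1 (0.058) and Ndufa12 (0.061), which encode mitochondrial or metabolic proteins, and Mmp3 to Trappc6a (0.072), Dap (0.083) and Acads (0.091). Timp1 lay nearest to Mrpl2 (0.017), Ccdc104 (0.042) and Apopt1 (0.057), and Mmp13 to Hyi (0.046), Ssbp4 (0.13) and Tppp3 (0.14). Mmp11 was nearest to Lpar6 (0.17), Mospd3 (0.17) and Bloc1s1 (0.19), and Plau to Atp6v0c-ps2 (0.11), Sord (0.15) and Msrb1 (0.15). Among the 10 genes themselves the closest pairs were Mmp3 with Plaur (0.15) and Mmp2 with Mmp14 (0.17). With 4 libraries many rows share a profile, so these are descriptions.

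Promoter sequences were set beside the levels, since several of these genes, among them Mmp3, Mmp13 and Plaur, are textbook targets of AP-1, the dimer of Fos and Jun proteins. RefSeq promoter windows (GRCm38.p6) were found for 8 of the 10 genes, the exceptions being Mmp2 and Plau. Each was searched over the 250 bases before the annotated start, on both strands, for the AP-1 site TGANTCA. The same windows were searched on both strands for the letters TATAAA, a promoter box that places the start of transcription; no matches of the 2 motifs overlapped. The AP-1 letters were in 3 of the 8 windows, those of Mmp3, Mmp13 and Plaur, and in 6.75% of 32851 windows of the same length. The letters of this box were in 2 of the 8, those of Mmp3 and Mmp13, and in 12.4% of all windows. The 3 windows with AP-1 letters are printed 5′ to 3′ along the gene, ending at the base before the start, with both motifs in capitals.
Mmp3: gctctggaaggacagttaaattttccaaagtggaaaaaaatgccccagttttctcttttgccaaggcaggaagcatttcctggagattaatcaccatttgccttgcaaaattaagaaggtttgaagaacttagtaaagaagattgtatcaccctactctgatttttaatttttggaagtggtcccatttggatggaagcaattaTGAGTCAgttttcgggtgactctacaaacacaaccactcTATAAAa
Mmp13: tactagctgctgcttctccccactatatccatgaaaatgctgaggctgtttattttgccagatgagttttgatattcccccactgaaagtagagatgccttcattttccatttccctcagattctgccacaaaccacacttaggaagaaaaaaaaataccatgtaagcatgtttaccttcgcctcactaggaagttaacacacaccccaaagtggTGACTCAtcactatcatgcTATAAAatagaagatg
Plaur: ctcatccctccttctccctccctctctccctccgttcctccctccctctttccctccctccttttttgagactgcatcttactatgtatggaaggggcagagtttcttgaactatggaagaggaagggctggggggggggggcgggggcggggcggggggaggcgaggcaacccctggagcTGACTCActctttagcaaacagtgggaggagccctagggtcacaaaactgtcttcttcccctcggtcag
The Mmp3 window is chr9:7445572-7445821 on the plus strand, that of Mmp13 chr9:7272264-7272513 on the plus strand, and that of Plaur chr7:24462233-24462482 on the plus strand. The first base of the AP-1 letters lies 46 bases before the start in Mmp3, 35 in Mmp13 and 69 in Plaur. That of the letters TATAAA lies 7 bases before the annotated start in Mmp3 and 16 in Mmp13. Whether these letters act as a box for those starts was not tested. Of these genes Plaur fell, Mmp3 was just short of the threshold and Mmp13 had a difference of -0.74 that rested on 1 wild-type library; the windows of Timp1, Timp2, Timp3, Mmp11 and Mmp14 held no AP-1 letters. A match is a description of the letters, not a measured site.

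Mmp3 and Mmp13 belong to a cluster of 10 metalloprotease genes on chromosome 9 in RefSeq, and its members did not share a pattern. Mmp12, the macrophage elastase, next to Mmp13 in that order, was measured at 2.61 and 92.1 FPKM in the wild-type pair, compared with 3.02 and 5.06 FPKM in the knockout-labelled libraries. Its neighbour Mmp13 was also highest in the second wild-type library, but Mmp3 was not. Mmp8, the neutrophil collagenase, was listed at 0 and at 0.284 FPKM in wild-type and was at 3.07 and 2.83 FPKM in the knockout-labelled libraries. It rose by 1.80 (SE 0.21, limma adjusted p = 0.028). Mmp8 reached 1 FPKM only in the knockout-labelled libraries, so it entered the test through the group where it was high. Without a filter the call ended (limma adjusted p = 0.061). With a pseudocount of 0.1 its difference was 3.96 and the call ended as well (limma adjusted p = 0.054). The neutrophil sum was higher in the same libraries, although the neutrophil markers Ltf and Csf3r were each highest in a wild-type library. Mmp10, named for its place in the cluster, was at 2.16 and 1.09 against 0.943 and 1.69 FPKM. Mmp1a and Mmp1b were listed at 0 in all 4 libraries, and Mmp7, Mmp20 and Mmp27 stayed below 1 FPKM.

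Of 57 other genes of the proteolysis machinery, 30 were tested. Of these 4 fell, 1 rose and 25 did not pass, with a median difference of -0.83. Over all tested rows 6.99% were called lower and 9.51% higher, with a median difference of 0.08. The single lists are short, so 1 call in a list says little about it. Among the 8 tested of 18 other metalloproteases Mmp8 rose and 7 did not pass. Besides Mmp12, the most abundant were Mmp19, at 2.88 and 24.0 FPKM in wild-type against 4.64 and 4.14 FPKM, and Mmp23, at 2.65 and 4.31 against 1.26 and 2.46 FPKM. Mmp12 and Mmp19 were thus highest in the second wild-type library, as Mmp2 and Mmp14 were.

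None of the 6 tested ADAM sheddases, which release membrane proteins, passed. Adam15 was at 12.1 and 45.3 FPKM in wild-type against 5.07 and 7.71 FPKM, Adam8, a leukocyte sheddase, at 5.30 and 36.0 against 20.1 and 16.6 FPKM, and Adam17, the shedder of TNF, which Timp3 inhibits, at 13.1 and 20.0 against 12.1 and 11.3 FPKM (limma adjusted p = 0.31). Adam17 thus varied less than Timp3. Of 5 tested ADAMTS proteases, which cut proteoglycans and procollagens, Adamts1 (-1.11, SE 0.22, limma adjusted p = 0.049) and Adamts8 (-1.13, SE 0.15, limma adjusted p = 0.031) fell. Adamts1 lost its call when 0.1 was added in place of 1 (limma adjusted p = 0.052) and after rescaling to a common total (0.053). The difference of Adamts8 was -2.54 with 0.1 added. Adamts8, at 1.71 and 1.52 against 0.195 and 0.192 FPKM, reached 1 FPKM only in the wild-type pair. It thus entered the test through the group where it was high, and without a filter its call ended (limma adjusted p = 0.063). Adamts10 was at 3.63 and 8.71 against 13.7 and 17.1 FPKM and Adamts4 at 4.84 and 15.0 against 3.12 and 4.66 FPKM, and neither passed.

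In the list of other inhibitors and cofactors 1 of 4 tested genes fell, the protease Bmp1, and 3 did not pass. Bmp1, the procollagen C-proteinase, fell from 10.8 and 8.71 to 2.80 and 2.95 FPKM (limma adjusted p = 0.036). Its enhancer Pcolce was at 8.22 and 21.8 against 7.30 and 6.19 FPKM, and the metalloprotease inducer Bsg at 426 and 263 against 147 and 139 FPKM (limma adjusted p = 0.062). Timp4, the remaining TIMP, was listed at 0 in all 4 libraries.

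In the plasminogen activator group 1 of 7 tested genes fell and 6 did not pass. Serpine2, an inhibitor of urokinase and thrombin, fell from 54.2 and 45.0 to 18.0 and 15.1 FPKM (limma adjusted p = 0.033). In both wild-type libraries and both others it was thus far above Plau, the enzyme it inhibits. Anxa2 and S100a10, which form a plasminogen-binding complex, were at 1154 and 457 against 273 and 275 FPKM and at 652 and 387 against 393 and 404 FPKM. The plasminogen receptor gene Plgrkt was at 26.0 and 77.6 against 55.5 and 61.3 FPKM, and Plg, the gene of plasminogen itself, was listed at 0 in all 4 libraries.

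Some of these rows overlap other genes, and strand use in counting is not given in the sources used here. Timp1 and Timp3 overlap Syn1 and Syn3 in RefSeq, synapsin genes that were at most 0.305 and 0.257 FPKM in any library, far below both inhibitors. Timp2 overlaps Cep295nl and Mmp2 overlaps Gm45472, for which the table has no row under those symbols.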

How the data were processed

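The labels' protocols state that libraries were made from RNA of sorted cells with a low-input SMARTer kit; the submitters' processing notes name the build mm9, while aligner, quantifier and annotation were not given in the sources used here. Deposited by the authors was 1 table of FPKM values; its header names no unit, so the unit was read from the values (unequal column totals, and low values that step with whole reads). Of 24043 rows, 92 spike-in rows, all at 0, were left out. Groups came from the sample titles. The test was limma 3.58.1 (R 4.3.3) on log2(FPKM + 1), for rows reaching 1 FPKM in 2 or more libraries. It used genotype as the only term and a robust prior with a trend. On simulated data the fit recovered 1.2% of 2-fold, 47.2% of 4-fold and 93.4% of 16-fold changes. A gene that did not pass may therefore still differ by such smaller folds. A permutation of 2 against 2 libraries cannot reach 0.05. The genes and lists were chosen with earlier results of these data known. The text names all 10 genes, and of each other list the genes past the threshold and the 3 most abundant. Mmp10 and others of the chromosome 9 cluster are named for their position. Xist, Tsix and the Y-linked genes are named as a check of the labelled sex, after their values were seen. Alternatives were another pseudocount, other filters, 3 scalings, another prior, each library left out and the replicate number as a block.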

Additional observations from a re-analysis of the deposited data

How the results depend on the processing

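Counts of called rows moved most when a library was left out (limma throughout). Leaving out 1 library gave 0 to 4269 rows called higher (1059 with all), 0 to 3643 called lower (778) and 0 to 9 of the 9 tested protease and inhibitor genes called (2). The zeros came without either knockout-labelled library, where 1385 and 1346 rows and 1 of the 9 genes had an unadjusted p under 0.05; with 1 library left, its spread is taken from the other group. Without a filter, 2 rows were called higher, 0 lower and 0 of the 10 genes (5 lower at an unadjusted p under 0.05, as were 13.3% of rows). With the replicate block the counts were 346, 155 and 0 (6 lower at an unadjusted p under 0.05, as were 16.8% of rows). The deviations of same-numbered libraries had a correlation of -0.062 across genes. Each group gives only 1 such contrast, so this cannot show whether the numbers pair the libraries. Rescaling to a common total, and the prior without trend or robust estimation, each left 1 call, Timp2. With libraries left out, differences ran from -1.07 to 0.079 for Mmp11, -4.24 to 0.45 for Mmp12 and -2.22 to 0.47 for Mmp19, with the sign turned without the second wild-type library. They ran from -0.94 to 1.61 for Adam8, -0.71 to 0.042 for S100a10 and -0.41 to 1.13 for Plgrkt, turned without the first; the cause was not tested. The calls of Mmp8, Adamts1, Adamts8, Bmp1 and Serpine2 also ended without either knockout-labelled library, without a filter and with the replicate block. With a pseudocount of 0.1 the calls of Mmp8 and Adamts1 ended, and differences moved to 3.96 for Mmp8, -2.54 for Adamts8, -1.86 for Plau and -0.74 for Mmp11. Adamts1 also lost its call after rescaling to a common total, and quantile normalization moved the difference of Adam8 from 0.34 to 0.21.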
